A study of Mus musculus with 23 samples.

Results

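Of the 26 named vectors in a barcoded vector pool, 4 targeted a Sik gene singly: 2 guides against Sik1 and 2 against Sik3, each paired in its vector with a non-targeting guide (NT). The members were taken from the vector names in the deposited table and from no measured value. They marked 50979 of the 324965 tumours (15.7%) counted in the 21 mice that entered the comparisons, of 23 labelled mice. Tumour barcode sequencing (Tuba-seq) reads genomic DNA of tumour-bearing mouse lung, in which an integrated vector leaves its identifier and a random barcode in each cell that founds a tumour. All mice were of a mixed BL6/129 strain, carried a Cre-dependent Tomato reporter (R26LSL-Tomato), and had developed lung tumours for 4 months. KT mice had no Cas9, so a guide has no nuclease to act with and the values in these mice are the background of each vector. KT_Cas9 mice also carried Cre-dependent Cas9 (H11LSL-Cas9). In KTL_Cas9 mice floxed Lkb1 (Lkb1flox/flox) was added to the Cas9 allele, so that Cre removes Lkb1 itself in the tumours. Of 5 KT, 10 KT_Cas9 and 8 KTL_Cas9 mice in the labels, 4, 10 and 7 entered. KT replicate 4 was not analysed here, and KTL_Cas9 replicate 1, with 17 tumours and 0 inert tumours, was left out.

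Sik1 and Sik3 encode salt-inducible kinases, members of the AMPK-related kinase family. Lkb1 (Stk11), a tumour suppressor in lung cancer, is the upstream kinase that phosphorylates the activation loop of these kinases and switches them on. Active SIKs phosphorylate CRTC coactivators and class IIa histone deacetylases and so hold them in the cytoplasm. Sik1, Sik2 and Sik3 share substrates, so that loss of a single family member can leave others in place.

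The vector identifiers are the bases by which every read was assigned to a guide, and the inert vectors carry guides named Neo and NT with no kinase target. Their sequences, written in capitals throughout, were as follows.
Sik1 guide 1: TACCAACG
Sik1 guide 2: CCTCAACA
Sik3 guide 1: TGACGTTC
Sik3 guide 2: ACAGTCGT
Inert Neo1/NT: AATCCGGT
Inert Neo1/NT/Neo2: AATTGCCG
Each identifier has 8 bases, and those of the Sik vectors differed among themselves at 4 to 8 positions and from any other named vector at 3 or more. In the names of all 4 Sik vectors the Sik guide stands behind the mouse U6 promoter (mU6) and NT behind the human U6 promoter (hU6), so Sik1 and Sik3 were tested in the same vector layout. Neo1/NT has that layout too, whereas Neo1/NT/Neo2 is a triple vector that begins with a bovine U6 promoter (bU6).

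The barcode behind the identifier names a single clone, and the largest clones show what the upper end of each size distribution rests on. Each barcode has 30 bases, of which 10 are fixed (lower case) and 20 are random (capitals). The largest clone of each Sik vector in the Cas9 groups was the following.
Sik1 guide 1, KT_Cas9 replicate 7: gcCCCCCtaCTCCCgcCCGCCtaCGTACgc
Sik1 guide 1, KTL_Cas9 replicate 4: gcGAAGTtaAAGAAgcAAATAtaGTAGAgc
Sik1 guide 2, KT_Cas9 replicate 1: gcCGGTCtaCTAGCgcCCGGCtaGTATAgc
Sik1 guide 2, KTL_Cas9 replicate 3: gcCTTGGtaCGCCCgcCCCGCtaACGCGgc
Sik3 guide 1, KT_Cas9 replicate 4: gcGGGGGtaTGTGTgcGTTGGtaGGGAGgc
Sik3 guide 1, KTL_Cas9 replicate 2: gcGGAGGtaGAGGAgcGGACGtaTAGTAgc
Sik3 guide 2, KT_Cas9 replicate 3: gcGGGTAtaGGTGAgcCAGGTtaGGGGGgc
Sik3 guide 2, KTL_Cas9 replicate 4: gcCTCCCtaCCATAgcCACGTtaCCCCGgc
The guide spacers were not analysed here.

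A tumour was a barcode with an estimated 500 cells or more. The 4 Sik vectors together had 3178 to 7911 tumours in a KT mouse, 310 to 9095 in a KT_Cas9 mouse and 136 to 740 in a KTL_Cas9 mouse. The depth behind them was uneven, since the shallowest KT_Cas9 mice, replicates 2 and 5, had 92713 and 218542 reads of named vectors, KT mice at least 936090 and KTL_Cas9 mice at least 2181575. In the median KT or KT_Cas9 mouse, the median Sik-vector tumour had between 10.5 and 12 reads, against 167 to 274.5 in KTL_Cas9 mice, so sizes near the floor in the former groups move in steps of whole reads. Size is given as the log2 ratio of the log-normal mean of a vector's tumours to that of the inert tumours in the same mouse, and number as the log2 ratio of tumour counts.

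Without Cas9, the Sik vectors gave tumours of nearly the size of inert tumours. The log2 size ratio of Sik1 guide 1 was 0.07, 0.12, 0.01 and 0.01 in KT replicates 1, 2, 3 and 5, and that of Sik1 guide 2 was 0.09, 0.12, -0.05 and -0.01. Sik3 guide 1 was at 0.05, 0.04, 0.05 and 0.13, and Sik3 guide 2 at 0.05, 0.14, -0.01 and 0.01. No ratio was further than 0.14 from 0, and Sik1 guide 1 and Sik3 guide 1 were above 0 in 4 of 4 mice. Means lay between 0.04 ± 0.08 (SD, n = 4) for Sik1 guide 2 and 0.07 ± 0.04 for Sik3 guide 1. Set against each other rather than against both pooled, the inert vectors differed by as much in these mice, with Neo1/NT at -0.10 ± 0.07 against Neo1/NT/Neo2 (SD, n = 4). With 4 mice an exact sign-flip permutation cannot go below p = 0.125, so these ratios have no usable test of their own.

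With Cas9 and intact Lkb1, tumours of 3 of the 4 vectors were larger than the inert tumours of the same mice, by a small amount. Both Sik1 vectors and Sik3 guide 1 passed an exact sign-flip permutation adjusted by Benjamini-Hochberg over the 24 targeting vectors, and Sik3 guide 2 did not. Of all 24, 75% were larger by this test, so passing it is the usual outcome for a targeting vector in these mice. For Sik1 guide 1 the log2 size ratio ran from -0.16 through a median of 0.24 to 0.41, with 9 of 10 mice above 0. Sik1 guide 2 ran from -0.15 through 0.27 to 0.72, again above 0 in 9 of 10 mice. Those values make both Sik1 guides alike in level, at 0.20 ± 0.17 and 0.26 ± 0.24 (SD, n = 10), and each had exact sign-flip adjusted p = 0.0110. Sik3 guide 1 ran from -0.09 through 0.10 to 0.57, with 8 of 10 mice above 0, and averaged 0.16 ± 0.21 (exact sign-flip adjusted p = 0.0208). Sik3 guide 2 ran from -0.28 through 0.13 to 0.40, with 9 of 10 mice above 0, and averaged 0.14 ± 0.19 (exact sign-flip adjusted p = 0.0666). In 8 of 10 mice all 4 vectors were above inert tumours, and in replicate 6 all 4 were below. The largest inert tumour of replicate 6 had an estimated 1401960 cells and held 54.0% of the cells of all inert tumours in that mouse. In replicate 4 the largest inert tumour had 5.02514e+06 cells and held 64.3%, and all 4 vectors were above inert tumours there (0.16, 0.14, 0.10 and 0.26). The part of such clones in the ratios was not tested. Without replicate 6 all 4 vectors passed. On median or arithmetic mean sizes, or with Neo1/NT/Neo2 as the sole inert vector, 0 of 4 passed. With the floor 3 times lower 4 of 4 passed, at log2 0.08 to 0.09 (exact sign-flip adjusted p from 0.0234 to 0.0271). The share of all 24 targeting vectors that passed was not counted at other floors, with other inert vectors or without single mice. Counts of the 4 vectors in those settings therefore have no background beside them. At 1500 cells, which left 8 mice, the ratios of Sik1 guide 1, Sik1 guide 2, Sik3 guide 1 and Sik3 guide 2 were 0.23, 0.34, 0.22 and 0.04 and 0 of 4 passed. At 5000 cells they were larger, 0.60, 0.58, 0.26 and 0.48, but 6 mice were left, where the smallest exact sign-flip p is 0.03125 before adjustment. Sik1 guide 1 reached that p there with 6 of 6 mice above 0 (adjusted p = 0.05).

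Sizes were then compared at 7 percentiles from the 50th to the 99th, of which the lower ones rest on few reads and move in whole-read steps. At the 50th percentile 0 of 4 vectors passed by exact sign-flip (0% of the 24 targeting vectors were larger), and Sik3 guide 1 had the same median size as the inert tumours in all 10 mice. The log2 ratios there were 0.05 ± 0.08 for Sik1 guide 1, 0.06 ± 0.12 for Sik1 guide 2 and 0.05 ± 0.07 for Sik3 guide 2 (SD, n = 10). At the 60th percentile 0 of 4 passed (0.04 to 0.08; 1 of 4 at an unadjusted p under 0.05), beside 50% of the targeting vectors. At the 70th 2 of 4 passed, Sik1 guide 1 at 0.15 ± 0.12 (exact sign-flip adjusted p = 0.0134) and Sik3 guide 2 at 0.14 ± 0.13 (adjusted p = 0.0268), beside 62.5%. At the 80th percentile 4 of 4 passed with values from 0.13 to 0.16, beside 79.2% of the targeting vectors, and at the 90th 3 of 4 passed, beside 79.2% as well. The member that missed at the 90th percentile was Sik3 guide 1 (0.22 ± 0.32, exact sign-flip adjusted p = 0.0586).

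At the 95th percentile all 4 Sik vectors were larger than inert tumours in KT_Cas9 mice, as were 91.7% of the targeting vectors. Sik1 guide 2 had the highest mean of the 4, 0.61 ± 0.45 (SD, n = 10; lowest -0.09, median 0.47, highest 1.28), above 0 in 9 of 10 mice (exact sign-flip adjusted p = 0.00625). Sik1 guide 1 followed at 0.41 ± 0.36 (lowest -0.07, median 0.40, highest 1.07; 9 of 10 mice; exact sign-flip adjusted p = 0.00827). Sik3 guide 1 was at 0.30 ± 0.38 (lowest -0.18, median 0.17, highest 1.09; 8 of 10 mice; exact sign-flip adjusted p = 0.0260). The lowest mean was that of Sik3 guide 2, at 0.26 ± 0.23 (lowest 0.04, median 0.19, highest 0.68), yet it was the member that was above 0 in 10 of 10 mice (exact sign-flip adjusted p = 0.00361). In the same mice the inert vector Neo1/NT exceeded Neo1/NT/Neo2 by 0.25 ± 0.36 at this percentile, in 7 of 10 mice (exact sign-flip p = 0.0547). The gap between 2 vectors without a kinase target was thus about as large as the values of the Sik3 vectors, but the references differ. It sets 1 inert vector against the other, and Neo1/NT/Neo2 had as few as 27 tumours in a mouse (replicate 2). The Sik3 values are set against both inert vectors pooled, so the gap is not a direct measure of their error. At the 99th percentile 0 of 4 passed, beside 58.3% of the targeting vectors. There the mice scattered widely, with means of 0.51 ± 1.06 and 0.59 ± 1.27 for the Sik1 guides and 0.09 ± 1.06 and 0.04 ± 1.46 for the Sik3 guides (SD, n = 10). With the floor at 1500 cells, which left 8 mice, the 95th-percentile ratios were 0.33 ± 1.11, 0.45 ± 1.44, -0.03 ± 1.08 and -0.19 ± 1.43 for Sik1 guide 1, Sik1 guide 2, Sik3 guide 1 and Sik3 guide 2, and 0 of 4 passed. At 5000 cells, with 6 mice, they were 1.08, 1.01, 1.27 and 1.02 in the same order, above 0 in 5 or 6 of 6 mice, and 0 of 4 passed (exact sign-flip adjusted p from 0.05 to 0.25). With the floor 3 times lower 4 of 4 passed, at 0.14 to 0.18 (exact sign-flip adjusted p from 0.00781 to 0.0188). The share of all targeting vectors that passed was not counted at these other floors.

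Counted directly, 4.99% ± 2.56 of Sik1 guide 1 tumours and 6.37% ± 2.33 of Sik1 guide 2 tumours reached 5000 cells in KT_Cas9 mice (SD, n = 10). The shares were 5.16% ± 2.07 for Sik3 guide 1, 4.64% ± 2.72 for Sik3 guide 2 and 4.15% ± 2.51 for inert tumours. These shares were not tested against the inert share of the same mice. Between 76.1% and 77.1% of the tumours of each Sik vector, and 79.8% of inert tumours, lay between 500 and 1500 cells, so most tumours sat in the lowest size class for all of them.

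Setting KT_Cas9 against KT mice asks what Cas9 added beyond each vector's own background, and none of the 4 vectors passed. By exact permutation of mouse labels 0 of 4 were larger in KT_Cas9 mice, after adjustment and at an unadjusted p under 0.05 alike, while 58.3% of the 24 targeting vectors were. Sik1 guide 2 had a log2 difference of 0.23 ± 0.09 (SE, n = 10 and 4; exact permutation adjusted p = 0.160). For Sik1 guide 1 the difference was 0.15 ± 0.06 (exact permutation adjusted p = 0.171). Both Sik3 guides were at 0.09 ± 0.07 (exact permutation adjusted p = 0.518 for guide 1 and 0.486 for guide 2). The members ranked 15 to 18 among the 24 differences, with a median of 0.12 against a median of 0.73 over all 24. For each Sik1 vector 8 of 10 KT_Cas9 mice were above all KT mice and 1 was below all of them. For Sik3 guide 1 and guide 2 that number was 3 and 5 of 10. Without KT_Cas9 replicate 6 both Sik1 guides passed, at 0.19 for guide 1 (exact permutation adjusted p = 0.0224) and 0.27 for guide 2 (exact permutation adjusted p = 0.0399), and both Sik3 guides did not. The share of all 24 targeting vectors that passed without that mouse was not counted, so these calls have no background beside them.

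The same held for the upper tail measured against KT mice. At the 95th percentile the differences were 0.41 ± 0.12 for Sik1 guide 1 and 0.48 ± 0.16 for Sik1 guide 2 (SE, n = 10 and 4; exact permutation adjusted p = 0.0847 and 0.0944), beside 58.3% of the targeting vectors that were larger. Sik3 guide 1 and guide 2 had 0.22 ± 0.12 and 0.19 ± 0.12 (exact permutation adjusted p = 0.369 and 0.228). A tumour share beyond the 95th percentile of inert tumours of the same mouse is near 5% by construction where sizes are alike. For Sik1 guide 1 it was 5.05% ± 0.46 in KT and 7.08% ± 1.69 in KT_Cas9 mice (SD, n = 4 and 10; exact permutation adjusted p = 0.0646). Sik1 guide 2 had 5.61% ± 0.64 and 8.97% ± 4.39, Sik3 guide 1 5.43% ± 0.22 and 6.98% ± 3.01, and Sik3 guide 2 5.28% ± 0.86 and 7.23% ± 2.18. The highest Sik1 guide 2 shares came from the shallow KT_Cas9 replicates 2 and 5, with 18.1% of 83 and 15.9% of 88 tumours. For Sik3 guide 1 replicate 2 was the highest (13.6%) and replicate 5 the lowest (3.30%). All 4 means were higher with Cas9, and 0 of 4 passed after adjustment (1 at an unadjusted p under 0.05), while 50% of the targeting vectors did. At the 90th percentile 0 of 4 passed against KT mice, beside 37.5% of the targeting vectors, with differences from 0.13 to 0.33. At the 80th percentile, where all 4 had passed against inert tumours, the differences from KT mice were only -0.01 to 0.08.

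In KTL_Cas9 mice, whose tumours lack Lkb1, inert tumours were much larger and the Sik vectors scattered around them. The log-normal mean of inert tumours ran from 19495 through 34618 to 103239 cells per mouse, against 926 through 1365 to 1845 in KT_Cas9 and 1740 through 1945 to 3088 in KT mice. Inert tumours numbered 61 to 321 per KTL_Cas9 mouse. Sik3 guide 2 had a log2 size ratio of -0.18 at the lowest, 0.49 at the median and 1.67 at the highest, with 6 of 7 mice above 0. Its mean of 0.58 ± 0.62 (SD, n = 7) was equalled by Sik1 guide 2, at 0.58 ± 0.98, which ran from -0.91 through 0.97 to 1.53 with 5 of 7 mice above 0. The wider spread of Sik1 guide 2 came from replicates 2 and 4, the mice below 0, at -0.91 and -0.51. Sik3 guide 1 ran from -1.04 through 0.70 to 1.22 and averaged 0.40 ± 0.84, with 5 of 7 mice above 0. Sik1 guide 1 ran from -1.05 through 0.44 to 0.98 and averaged 0.19 ± 0.72, with 5 of 7 mice above 0 as well. All 4 vectors were above inert tumours in 3 of 7 mice, and no mouse had all 4 below. Against the inert tumours of the same mice 0 of 4 passed by exact sign-flip, as did 0% of the targeting vectors, and 1 of 4, Sik3 guide 2, had an unadjusted p under 0.05 (exact sign-flip p = 0.0469, adjusted p = 0.161). Neo1/NT over Neo1/NT/Neo2, a ratio to 1 inert vector rather than to both pooled, had a spread of the same order in these mice, at -0.17 ± 0.76 (SD, n = 7).

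The order of the mean values of the genes was not the same across the percentiles in KTL_Cas9 mice, though no member passed against inert tumours at any of the 7 percentiles, nor did any other targeting vector (0%). At the 50th percentile the Sik1 guides were at 0.28 ± 0.80 and 0.37 ± 0.66 and the Sik3 guides at -0.46 ± 0.67 and -0.26 ± 0.72 (SD, n = 7). For both Sik3 guides alike, 1 of 7 mice was above the inert median. The contrast of Sik1 minus Sik3 at this percentile was 0.69 ± 1.06, above 0 in 5 of 7 mice (exact sign-flip p = 0.156, adjusted p = 0.328 over 7 contrasts). At the 99th percentile the values were -0.07 ± 0.82 and 0.20 ± 1.27 for the Sik1 guides and 0.63 ± 1.18 and 0.97 ± 1.14 for the Sik3 guides, a gap between the genes that was not tested. Each Sik3 guide was above the inert 99th percentile in 6 of 7 mice. A Sik3 vector had as few as 32 tumours and the inert vectors as few as 61 in a mouse. The 99th percentile there rests on the largest 1 or few clones. The share of tumours with 50000 cells or more was 20.3% ± 5.08 for Sik1 guide 1, 22.0% ± 7.27 for Sik1 guide 2, 21.6% ± 8.39 for Sik3 guide 1, 19.6% ± 8.10 for Sik3 guide 2 and 17.3% ± 5.85 for inert tumours. These shares were not tested either.

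KTL_Cas9 mice differ from KT mice in both Cas9 and Lkb1, and no group lacked Lkb1 without carrying Cas9. What the guides added and what Lkb1 loss changed therefore cannot be told apart in this comparison. Measured against KT mice, the size differences in KTL_Cas9 mice were 0.13 ± 0.27 for Sik1 guide 1, 0.54 ± 0.37 for Sik1 guide 2, 0.33 ± 0.32 for Sik3 guide 1 and 0.53 ± 0.24 for Sik3 guide 2 (SE, n = 7 and 4). By exact permutation 0 of 4 passed (adjusted p = 0.324 or more, and none had an unadjusted p under 0.05), as did 0% of the 24 targeting vectors. Their median was 0.43 against 0.18 over all 24, and the members ranked 6, 7, 10 and 13. The cells summed over all tumours of Sik3 guide 2, relative to inert tumours, rose by 1.10 ± 0.28 on the log2 scale before adjustment (exact permutation p = 0.0303) and did not pass after it (adjusted p = 0.145; 0% of the targeting vectors higher). This sum rests on few clones, since the largest held 30.9% of the cells of Sik3 guide 2 on average over KTL_Cas9 mice.

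The direct comparison of KTL_Cas9 with KT_Cas9 mice asks whether a guide did more or less once Lkb1 was gone, and for size 0 of 4 passed. By exact permutation 4.17% of the targeting vectors were larger and 33.3% smaller in KTL_Cas9 mice. Sik3 guide 2 had a difference of 0.44 ± 0.24 (SE, n = 7 and 10; exact permutation p = 0.0400, adjusted p = 0.0799), with 4 of 7 KTL_Cas9 mice above every KT_Cas9 mouse. It passed without KTL_Cas9 replicate 4 (0.52) or replicate 6 (0.57), where the share of all targeting vectors that passed was not counted. Sik1 guide 2 was at 0.31 ± 0.38, Sik3 guide 1 at 0.24 ± 0.32 and Sik1 guide 1 at -0.02 ± 0.28, with exact permutation adjusted p from 0.455 to 0.947. The members' median was 0.27 against -0.18 over all 24 vectors. The share of tumours beyond the inert 95th percentile gave 0 of 4 too, where 29.2% of the targeting vectors had a lower share in KTL_Cas9 mice. At the 60th percentile 0 of 4 passed, beside 25% of the targeting vectors that were higher. Among the 7 percentiles 1 member value passed, the 90th percentile of Sik1 guide 1, which was lower in KTL_Cas9 mice by -0.30 ± 0.13 (exact permutation adjusted p = 0.0393), where 54.2% of the targeting vectors were lower. That call was lost when any of 10 of the 17 mice was left out, with differences from -0.35 to -0.20.

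The number of tumours per vector is set first by how much of each vector the pool held, so it is read against KT mice. There were 0.555 ± 0.022 tumours of Sik1 guide 1 for each inert tumour in KT mice, 0.493 ± 0.025 of Sik1 guide 2, 0.580 ± 0.030 of Sik3 guide 1 and 0.453 ± 0.016 of Sik3 guide 2 (SD, n = 4). The order was the same in KT_Cas9 mice, at 0.538 ± 0.032, 0.501 ± 0.093, 0.654 ± 0.076 and 0.486 ± 0.053 (SD, n = 10). In KTL_Cas9 mice Sik1 guide 1 had the highest mean, with 0.656 ± 0.164, 0.559 ± 0.103, 0.629 ± 0.112 and 0.556 ± 0.147 for the 4 vectors in that order (SD, n = 7). Sik3 guide 1 was the member with the largest log2 difference between KT_Cas9 and KT mice, 0.17 ± 0.06 (SE; exact permutation p = 0.0769, adjusted p = 0.474). Its log2 number was -0.78, -0.83, -0.69 and -0.85 in the KT mice and ran from -0.79 through -0.63 to -0.28 in KT_Cas9 mice, 6 of which were above all KT mice. The groups therefore overlapped in the other 4 mice.

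By exact permutation 0 of 4 vectors differed in number between KT_Cas9 and KT mice, also without adjustment, as did 0% of the targeting vectors in either direction. The remaining differences were -0.05 ± 0.04 for Sik1 guide 1, 0.01 ± 0.09 for Sik1 guide 2 and 0.09 ± 0.05 for Sik3 guide 2 (SE, n = 10 and 4). Between KTL_Cas9 and KT mice the differences were 0.21 ± 0.13, 0.16 ± 0.11, 0.10 ± 0.10 and 0.25 ± 0.14 for Sik1 guide 1, Sik1 guide 2, Sik3 guide 1 and Sik3 guide 2 (SE, n = 7 and 4), with 0 of 4 and 0% of the targeting vectors called. Against KT_Cas9 mice 0 of 4 passed too, beside 8.33% of the targeting vectors that were higher. Sik1 guide 1 came nearest there, at 0.26 ± 0.13 (exact permutation p = 0.0185, adjusted p = 0.148). The ratio of Neo1/NT to Neo1/NT/Neo2 tumours also moved between these groups, by -0.42 ± 0.13 from KT to KTL_Cas9 mice (exact permutation p = 0.0455, adjusted p = 0.282) and by -0.28 ± 0.15 from KT_Cas9 to KTL_Cas9 mice (exact permutation p = 0.0626). Its part in the number ratios was not tested. With Neo1/NT/Neo2 as the sole inert vector the KTL_Cas9 minus KT differences were -0.09, -0.14, -0.20 and -0.05 in the same order, so the direction of a number ratio between these groups depended on the inert vector.

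Sik1 and Sik3 were compared within the same mice, as the mean of the 2 Sik1 vectors minus the mean of the 2 Sik3 vectors and as all 6 pairs of vectors, with p-values adjusted over these 7 contrasts. In size Sik1 minus Sik3 was 0.08 ± 0.15 in KT_Cas9 mice, above 0 in 7 of 10 (SD, n = 10; exact sign-flip p = 0.109, adjusted p = 0.227). It was -0.01 ± 0.05 in KT mice and -0.11 ± 0.67 in KTL_Cas9 mice, there above 0 in 5 of 7 (SD, n = 7; exact sign-flip adjusted p = 0.839). The KTL_Cas9 mean was negative because of replicates 2 (-1.32) and 5 (-0.70), and the other 5 mice ran from 0.03 to 0.63. Guides of the same gene differed by -0.06 ± 0.14 for Sik1 guide 1 minus guide 2 and by 0.02 ± 0.14 for Sik3 guide 1 minus guide 2 in KT_Cas9 mice. The gap between the genes was thus close in size to the gap between the 2 Sik1 guides. At the 95th percentile Sik1 minus Sik3 was 0.22 ± 0.26 in KT_Cas9 mice, above 0 in 8 of 10 (SD, n = 10; exact sign-flip p = 0.0293, adjusted p = 0.109), and -0.29 ± 0.58 in KTL_Cas9 mice (exact sign-flip adjusted p = 0.519). The change of that contrast between these groups, -0.52 ± 0.23 (SE), did not pass after adjustment (exact permutation p = 0.0262, adjusted p = 0.0893).

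In tumour number the contrast of the genes needs no inert tumours, since their count cancels. In KT_Cas9 mice Sik1 minus Sik3 ran from -0.37 to 0.10 and was below 0 in 9 of 10 mice. In KT mice it was 0.04, -0.01, -0.03 and 0.12, and in KTL_Cas9 mice it ran from -0.10 to 0.33. At 500 cells KT_Cas9 mice thus had the fewest Sik1 tumours relative to Sik3 tumours on average. Against KT mice the log2 numbers there differed by -0.05 and 0.01 for the Sik1 guides and by 0.17 and 0.09 for the Sik3 guides, none of which passed. With the floor 3 times lower the gene contrast was lower in KTL_Cas9 than in KT mice as well, by -0.13 (exact permutation adjusted p = 0.159). Between KTL_Cas9 and KT_Cas9 mice 3 of the 7 contrasts passed. Sik1 minus Sik3 rose by 0.16 ± 0.07 (SE, n = 7 and 10; exact permutation adjusted p = 0.0456). Sik1 guide 1 minus Sik3 guide 1 rose by 0.32 ± 0.09 (exact permutation adjusted p = 0.00468), from -0.28 to 0.05. Sik3 guide 1 minus Sik3 guide 2 fell, with a difference of -0.23 ± 0.09 (exact permutation adjusted p = 0.00468), from 0.43 to 0.20. At 500 cells Sik3 guide 1 takes part in every contrast that passed, and Sik1 guide 2 minus Sik3 guide 2 was -0.01 ± 0.12. Sik1 guide 2 minus Sik3 guide 1, which holds Sik3 guide 1 too, was not among the contrasts that passed. The Sik1 minus Sik3 call was lost when any of 13 of the 17 mice was left out (0.11 to 0.18). Sik1 guide 1 minus Sik3 guide 1 and Sik3 guide 1 minus Sik3 guide 2 kept their calls in 17 of 17. With the floor 3 times lower 0 of the 3 passed, at -0.0060, 0.10 and -0.14 in the order above. At 1500 cells the gene contrast was 0.36 ± 0.10 (exact permutation adjusted p = 0.0147) and Sik1 guide 1 minus Sik3 guide 1 was 0.42 ± 0.11 (adjusted p = 0.00435), while Sik3 guide 1 minus Sik3 guide 2 was -0.14 ± 0.09 and did not pass. At 5000 cells, where 6 KT_Cas9 mice were left, the values were 0.21, 0.43 and -0.25, as large as at 500 cells or larger, and 0 of the 3 passed after adjustment. Against KT mice the gene contrast was -0.15 ± 0.05 in KT_Cas9 (exact permutation p = 0.0400, adjusted p = 0.0932) and 0.01 ± 0.06 in KTL_Cas9 mice (adjusted p = 0.952), and 0 of 7 contrasts passed in either comparison.

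Single clones carried a large part of the cells of some vectors. The Sik1 guide 1 clone of KT_Cas9 replicate 7, the first barcode shown above, had 21338 reads and an estimated 2257830 cells, which was 74.3% of all cells of its vector in that mouse. The Sik1 guide 2 clone of KT_Cas9 replicate 1 had 28052 reads, 2067110 cells and 53.0% of its vector's cells. The largest clone of any Sik vector was that of Sik3 guide 2 in KTL_Cas9 replicate 4, with 131894 reads, an estimated 1.07034e+07 cells and 56.6% of its vector's cells. On average over the KT_Cas9 mice the largest clone held 22.1% of cells for Sik1 guide 1, 19.4% for Sik1 guide 2, 21.8% for Sik3 guide 1 and 21.3% for Sik3 guide 2, against 2.86% to 7.02% in KT mice. In KTL_Cas9 mice it held 18.3%, 20.9%, 26.2% and 30.9% in the same order. A sum of cells thus rests on few clones in both Cas9 groups. This was not particular to the Sik vectors. The largest inert tumour held 3.70% to 64.3% of inert cells in single KT_Cas9 mice and 8.43% to 28.6% in KTL_Cas9 mice. Some barcodes of the largest Sik clones were also read at low counts elsewhere under the same vector. The Sik1 guide 1 barcode had 13 reads (541 cells) in KT_Cas9 replicate 5, where it counted as a tumour, and the Sik3 guide 2 barcode had 5 reads in KT replicate 1 and 8 in KTL_Cas9 replicate 5. In all, 1.76% of Sik1 guide 1, 2.29% of Sik1 guide 2, 2.93% of Sik3 guide 1 and 2.24% of Sik3 guide 2 tumours had a barcode found in more than 1 mouse. For inert tumours it was 538 of 17922 for Neo1/NT and 116 of 6383 for Neo1/NT/Neo2. Without such barcodes 2 of 4 vectors passed against inert tumours in KT_Cas9 mice, for size and for the 95th percentile alike. The share of all targeting vectors that passed was not counted there.

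Each single-gene vector shares its guide with dual Sik1/Sik3 vectors of the pool, in which it stands beside a guide against the other gene. By their names, the dual vectors keep the Sik1 guide behind mU6 and hold the Sik3 guide behind hU6. A Sik3 guide thus also changes promoter between single-gene and dual vectors, and the part of the promoter was not tested. The 8 pairs are built from 4 dual and 4 single-gene vectors, so they overlap. In KT_Cas9 mice the dual vector gave larger tumours than its single-gene vector in all 8 pairs, by log2 0.68 ± 0.37 to 0.90 ± 0.68 (SD, n = 10), in 8 to 10 of 10 mice (exact sign-flip adjusted p from 0.00391 to 0.00781 over 8 pairs). Sik1 guide 1/Sik3 guide 1 exceeded Sik1 guide 1 by 0.68 ± 0.37 and Sik3 guide 1 by 0.72 ± 0.46. The differences minus those in KT mice were 0.60 ± 0.15 to 1.07 ± 0.23 (SE, n = 10 and 4), and 8 of 8 passed (exact permutation adjusted p from 0.0213 to 0.0240). In KTL_Cas9 mice 4 of 8 pairs passed (exact sign-flip adjusted p = 0.03125). Sik1 guide 2/Sik3 guide 1 exceeded Sik3 guide 1 by 2.07 ± 0.92 there, in 7 of 7 mice (SD, n = 7), while the dual vector of both guides 2 exceeded its single-gene vectors by 0.23 ± 2.55 and 0.23 ± 2.38 and did not pass.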

How the data were processed

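Tumour barcodes were sequenced from lung genomic DNA of 23 labelled mice, and groups follow the genotypes in the labels. A further item that all groups share is not reported here. Numbers of mice within a group follow record order only, since no label numbers them. The deposited counts are whole reads per mouse, vector identifier and barcode, from 2 upwards and not normalised. Per the file headers, the deposited cell signal is an estimated cell number. It equals the count times a deposited ratio of cells per read, which is 500000 divided by a read number of that mouse. How that standard was made, and how reads were turned into barcodes, is not stated in the labels or headers. Every line of KT replicate 2 stood 2 times, and 105870 repeats were dropped. Lines without a vector name (48400, 1.76% of reads) were left out.

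A vector needed 5 tumours in a mouse and a mouse 20 inert tumours. Since PCR reads carry no molecular identifiers, errors are those over mice. Two-sided exact tests were used: permutation of mouse labels between groups (1001, 330 and 19448 splits) and sign flips over mice within a group (smallest p 0.00195 for 10 and 0.0156 for 7 mice), with Benjamini-Hochberg adjustment over 24 vectors, 7 contrasts or 8 dual-single pairs and a threshold of 0.05. Tools were Python 3.11.15, numpy 2.4.6, pandas 2.3.3 and scipy 1.17.1, and as alternatives edgeR 4.0.16, limma 3.58.1 and DESeq2 1.42.0 in R 4.3.3. The statistics were tested on simulated data. The members and tests were chosen with earlier results of these data known, and percentiles, dual-single pairs, number contrasts of KTL_Cas9 with KT_Cas9 and the tests against inert tumours were added after values were seen. By the naming rule, the 4 members, both inert vectors and the dual Sik1/Sik3 vectors are named.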

Additional observations from a re-analysis of the deposited data

Results flagged for a closer look

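In groups of 4 to 10 mice, a mouse was marked where its gap to the next value exceeded Dixon's 95% critical value. Of 54 groups of member values 3 were marked, and chance marks about 1 in 20. The log2 size ratio of Sik3 guide 2 in KT_Cas9 replicate 6 was -0.28, against 0.05 to 0.40 in the other mice. In the same mouse the log2 ratio of its summed cells to those of inert tumours was -3.28, against -1.43 to -0.10 in the others. A single inert tumour held 54.0% of inert cells in that mouse, and its part in these values was not tested. In KT_Cas9 replicate 4 a single inert tumour held 64.3% of inert cells, and the same ratios of Sik3 guide 2 were 0.26 and -1.43. The summed cells of Sik1 guide 1 had a log2 ratio of -1.66 in KTL_Cas9 replicate 3, against -0.64 to -0.01 in the other mice.

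The 3 contrasts of log2 tumour number that follow differed between KTL_Cas9 and KT_Cas9 mice by exact permutation, adjusted over 7 contrasts. They were Sik1 minus Sik3 (0.16), Sik1 guide 1 minus Sik3 guide 1 (0.32) and Sik3 guide 1 minus Sik3 guide 2 (-0.23).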

How the results depend on the processing

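Vectors were compared within the same mice, but mice could not be paired between groups, which hold different animals without replicate numbers in the labels. Alternatives for values against inert tumours, for number contrasts of KTL_Cas9 with KT_Cas9, for the 90th percentile and without both shallow KT_Cas9 mice were chosen after seeing the data. Of 467 recomputed main values or counts 412 were kept, and of 785 values of named vectors 717 were. A value was kept if its direction and side of the threshold stayed the same. A count of calls was kept if it equalled the main count or lay close to it, so a kept count can differ slightly. For the other values the cause was not tested, except where fewer mice or fewer tumours enter by construction. Reads near the floor (about 11 for the median tumour in KT and KT_Cas9 mice) limit percentiles there, and 61 to 321 inert tumours limit KTL_Cas9 values.

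On arithmetic means Sik1 guide 1 size, KTL_Cas9 vs KT, was -0.032, and 0 vectors passed against inert tumours in KT_Cas9 mice. On medians Sik3 guide 1 size was -0.029 for KT_Cas9 vs KT and -0.49 for KTL_Cas9 vs KT, Sik3 guide 2 was -0.26 there, and KTL_Cas9 vs KT_Cas9 gave 0.24 (Sik1 guide 1), -0.46 (Sik3 guide 1) and -0.31 (Sik3 guide 2). Sik1 minus Sik3 size in KTL_Cas9 was 0.69, and 0 vectors passed against inert tumours. On the 90th percentile Sik1 guide 1 was -0.17 for KTL_Cas9 vs KT, Sik1 guide 2 was -0.12 for KTL_Cas9 vs KT_Cas9, and 1 vector passed there. On the 95th percentile Sik1 guide 2 was -0.091 for KTL_Cas9 vs KT_Cas9.

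With the floor 3 times lower, Sik3 guide 1 size was -0.024 (KTL_Cas9 vs KT) and -0.038 (KTL_Cas9 vs KT_Cas9), where Sik1 guide 1 was 0.30. Sik1 guide 2 number, KT_Cas9 vs KT, was -0.014, Sik3 guide 1 number, KTL_Cas9 vs KT_Cas9, 0.11, and 2 vectors passed for number there. How many of the other targeting vectors passed for number at this floor was not counted, so these 2 calls have no background beside them. Sik1 minus Sik3 was 0.40 for size in KTL_Cas9 and -0.13 for number, KTL_Cas9 vs KT. For number, KTL_Cas9 vs KT_Cas9, Sik1 minus Sik3 was -0.0060, Sik1 guide 1 minus Sik3 guide 1 0.10 and Sik3 guide 1 minus Sik3 guide 2 -0.14. With the floor 3 times higher, number was 0.042 for Sik1 guide 1 (KT_Cas9 vs KT), -0.067 for Sik3 guide 1 (KTL_Cas9 vs KT) and -0.13 for Sik3 guide 2 (KTL_Cas9 vs KT_Cas9), Sik3 guide 1 minus Sik3 guide 2 was -0.14, and 0 and 0 vectors passed against inert tumours on size and the 95th percentile. With the floor 10 times higher these counts were 0 and 0 too, although the ratios were larger there (0.26 to 0.60 for size and 1.01 to 1.27 at the 95th percentile), in 6 mice with a smallest sign-flip p of 0.03125. Sik1 guide 2 size, KTL_Cas9 vs KT_Cas9, was then -0.24, and number was 0.019 for Sik1 guide 1 (KT_Cas9 vs KT), -0.14 for Sik3 guide 1 (KTL_Cas9 vs KT), and -0.024 for Sik1 guide 2 and -0.0092 for Sik3 guide 2 (KTL_Cas9 vs KT_Cas9). The 3 number contrasts were 0.21, 0.43 and -0.25, without a call and with 6 KT_Cas9 mice.

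With Neo1/NT alone, 1 vector passed for size and 1 for number in KTL_Cas9 vs KT_Cas9, Sik1 guide 1 size was 0.051 and Sik3 guide 1 number 0.015. With Neo1/NT/Neo2 alone, number was -0.10 and -0.011 for Sik1 guide 2 and Sik3 guide 2 (KT_Cas9 vs KT), -0.093, -0.14, -0.20 and -0.046 for the 4 vectors (KTL_Cas9 vs KT), and -0.040 and -0.035 for Sik1 guide 2 and Sik3 guide 2 (KTL_Cas9 vs KT_Cas9), and 0 vectors passed against inert tumours on size. Without barcodes seen in several mice, Sik1 guide 1 size was 0.11 and 1 vector passed for number (KTL_Cas9 vs KT_Cas9), Sik1 guide 2 number was -0.012 (KT_Cas9 vs KT), and 2 vectors passed on the 95th percentile against inert tumours. At 10 or more reads that count was 2, and Sik1 minus Sik3 number, KTL_Cas9 vs KT_Cas9, was 0.14. Without both shallow mice Sik1 guide 1 size was 0.0042 and 2 vectors passed for number (KTL_Cas9 vs KT_Cas9), and for KT_Cas9 vs KT Sik1 guide 2 number was -0.11 and Sik1 minus Sik3 number -0.17, which passed. The edgeR test on reads called 1 vector for KT_Cas9 vs KT (Sik3 guide 2, lower) and 4 for KTL_Cas9 vs KT_Cas9 (higher). On tumour counts edgeR and DESeq2 called 1 vector each for KTL_Cas9 vs KT_Cas9 (Sik3 guide 1, lower). All counts in this paragraph are of the 4 Sik vectors only. How many of the other targeting vectors passed in these settings or by these tools was not counted. The calls therefore have no background beside them and are not particular findings about the Sik vectors.

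Leaving out 1 mouse at a time gave -0.045 to 0.031 for Sik1 guide 2 number and 0 to 2 size calls in KT_Cas9 vs KT, where Sik1 minus Sik3 number ran from -0.17 to -0.12 and passed without KT_Cas9 replicate 5. In KTL_Cas9 vs KT Sik1 minus Sik3 number ran from -0.040 to 0.038. In KTL_Cas9 vs KT_Cas9 Sik1 guide 1 size ran from -0.15 to 0.19 and Sik1 minus Sik3 number from 0.11 to 0.18. Calls there were 0 to 1 for size and 0 to 1 for number (Sik1 guide 1, without KTL_Cas9 replicate 8 or KT_Cas9 replicate 2). How many of the other targeting vectors passed with a mouse left out was not counted, so the size and number calls have no background beside them. Sik1 minus Sik3 size in KTL_Cas9 ran from -0.23 to 0.10 and was positive without replicate 2.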
